A study of Mus musculus with 29 samples.

Results

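The mRNAs of 10 factors that cleave and polyadenylate pre-mRNA were followed through fractionated C2C12 cells: Cstf1, Cstf2, Cstf2t, Cstf3, Cpsf1, Cpsf2, Cpsf6, Nudt21, Pcf11 and Pabpn1. The genes were chosen by their place in this machinery, with the high membrane level of Cstf2t in the gradient libraries already known, so membrane and cytosol levels of those libraries are given without a test. Members were found by their gene symbol in the deposited table of poly(A) sites and in the deposited RNA-seq table. These were 10 of 15954 genes with reads, and they held 60 of the 125369 listed poly(A) sites. Of those 60 sites, 55 had reads, and 25 held at least 5% of the reads of their gene. All 10 genes passed the filter on low counts in both sets of libraries tested. The RNA-seq table listed 8 of the 10 and did not list Cstf2t or Nudt21.

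Most animal mRNAs receive their 3′ end when a multi-protein machine cuts the nascent transcript and adds a poly(A) tail. The CPSF complex reads the AAUAAA-type hexamer and makes the cut, CstF binds the U- or GU-rich element downstream of the cut, CFI binds UGUA motifs upstream, and CFII couples cleavage to the end of transcription. Poly(A) binding proteins then coat the tail. Many genes carry several alternative poly(A) sites, and the abundance of these factors is known to shift which site is used, including in differentiating muscle cells and in the factors' own genes.

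C2C12 is an established line of mouse myoblasts, which fuse into myotubes in low serum. The 29 samples were 26 libraries made with 3′READS+, which sequences the transcript end next to the poly(A) tail, and 3 RNA-seq libraries. Cells were broken into a cytosol fraction and a membrane fraction, and gradients parted polysomes (mRNA with many ribosomes) from monosomes. In the gradient set, proliferating and differentiating cells gave cytosol polysome, cytosol monosome, membrane polysome and membrane monosome groups of 2 replicates each, 16 libraries in all. Proliferating cells were labelled as grown in 10% fetal bovine serum. For differentiating cells the polysome libraries were labelled with 2% horse serum and the monosome libraries with 10% fetal bovine serum, so in that state the labelled medium differed along with the gradient part. Whole cytosol and whole membrane of proliferating cells gave 1 3′ end library each, and cytosol, membrane and insoluble material gave 1 RNA-seq library each. A puromycin series held 1 cytosol and 1 membrane library of proliferating cells at each of 4 exposures, namely untreated and 100 µg/ml for 0, 30 or 60 min. Puromycin ends translation by releasing the growing peptide from the ribosome.

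The 3′ end libraries held 2964852 to 11631401 reads. Summed levels of 12 listed muscle markers, 10 of them with reads, were 304 to 589.7 CPM (reads of a gene scaled to a common library total) in the proliferating gradient libraries and 4222 to 36628 CPM in the differentiating ones. Among gradient libraries the highest muscle-marker sum was 36628 CPM in replicate 1 and 8089 CPM in replicate 2. Comparisons of states took both replicates together. Leukocyte markers stayed at or below 1.58 CPM and endothelial markers at or below 0.344 CPM in every 3′ end library. Summed markers of the endoplasmic reticulum and secretory path were 875 to 3406 CPM in proliferating cytosol and 21936 to 35156 CPM in proliferating membrane gradient libraries. Nuclear-retained RNAs (Malat1, Neat1, Meg3 and Kcnq1ot1) also moved with fraction, at 1.81 to 24.0 CPM in the former and 19.3 to 658 CPM in the latter. Each read marks 1 transcript end, so CPM does not scale with transcript length and levels can be set side by side between genes.

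Several of these factors had lower relative levels in the gradient libraries of differentiating cells. These levels are shares of library reads averaged over gradient groups, and mRNA per cell was not measured. Cstf2, Cpsf2, Cstf1 and Cpsf6 were lower than in proliferating cells over the 4 pairs of gradient groups, 4 of 10 members at an adjusted p under 0.05 (quasi-likelihood test of edgeR, p-values adjusted by Benjamini-Hochberg over all genes), against 19.2% of the 11176 tested genes that were lower and 35.5% that differed in either direction. The median log2 fold change of the 10 members was −0.52 and that of all genes −0.09. Every member's estimate lay below 0, as did the median of all genes, and the share of all genes below 0 was not counted. With DESeq2's size factors the median of all genes was −0.003, and 53.2% of all called genes were higher, against 45.9% with the main scaling. A fit with the replicate number as a block called 6 of 10 members, all lower, against 25.8% of all genes lower and 46.6% in either direction.

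In the cytosol of proliferating cells 3 of 10 members differed between polysomes and monosomes, where 24.3% of all genes did: Cpsf2 and Cstf2 were higher in polysomes and Pcf11 was higher in monosomes. In differentiating cytosol 2 of 10 differed (23.9% of all genes), Cstf3 and Cpsf2, both higher in polysomes. In the membrane fraction 0 of 10 differed in proliferating cells (0.796% of all genes, with 1572 genes at an unadjusted p under 0.05). DESeq2's test called 1 member there, and its share of all genes is not given here. In differentiating membrane 1 of 10 differed (3.95% of all genes), where Cstf2t was lower in polysomes. With the replicate block these counts became 4, 5, 3 and 1, against 48%, 46.2%, 23.1% and 29.7% of all genes, in the order proliferating cytosol, differentiating cytosol, proliferating membrane and differentiating membrane. The member counts in cytosol lay near the shares of all genes, so they show nothing particular to these factors. Scaled by DESeq2's size factors, the share of all called genes that were higher in polysomes went from 52.7% to 42.2% in differentiating cytosol, from 44.9% to 19.8% in proliferating membrane and from 51.8% to 34.6% in differentiating membrane.

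**Figure D1:**
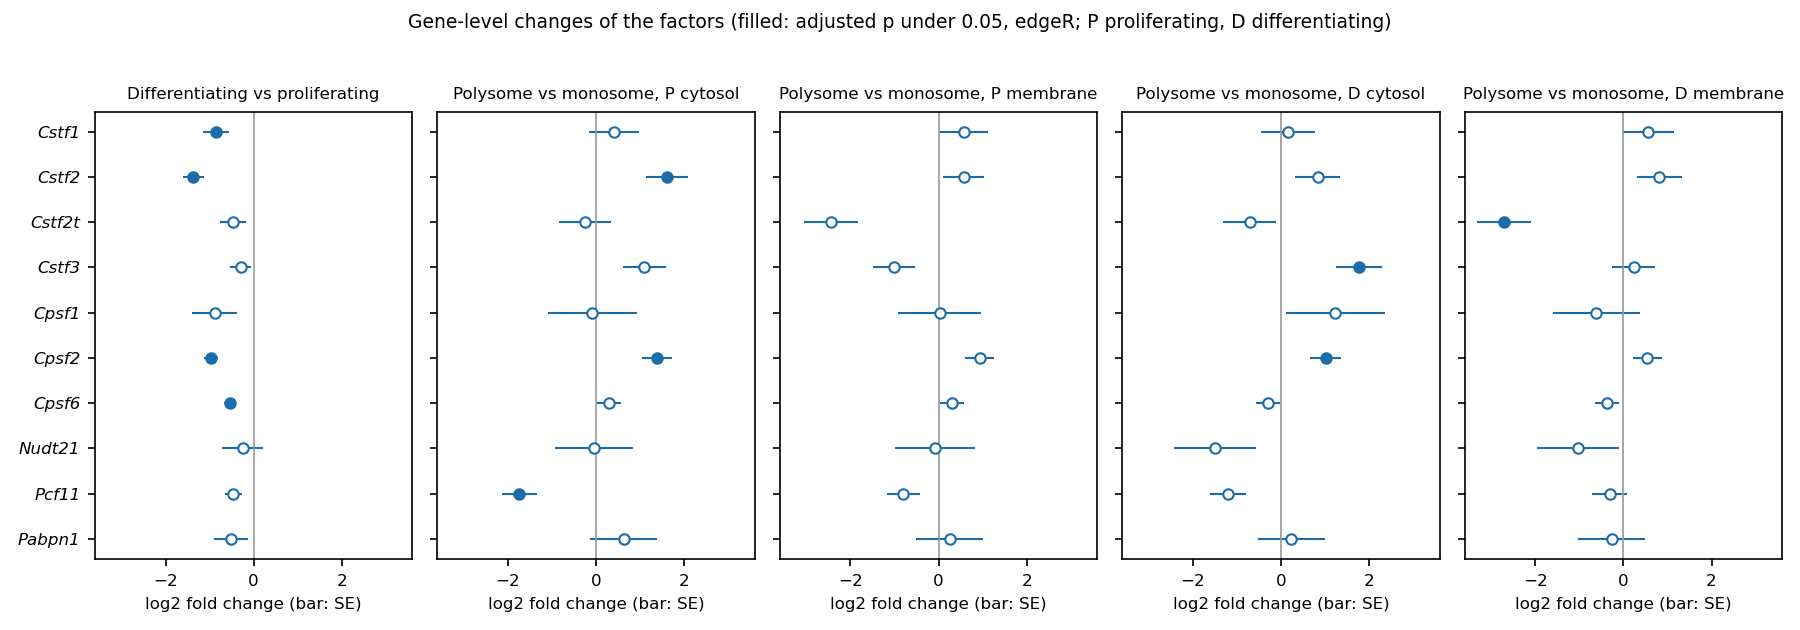
Log2 fold change (x axis) of each factor in the state comparison and the 4 polysome-to-monosome comparisons, with bars for 1 SE and filled points for adjusted p under 0.05 (edgeR, 16 gradient libraries). All 10 estimates lie left of 0 in the state comparison, where the median of all genes was −0.09. Cstf2t lies farthest left in both membrane panels, at −2.44 and −2.72.

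Membrane and cytosol of the gradient libraries are set out as a description, since that difference was in view when the genes were picked. Cstf2t had the highest log2 membrane-to-cytosol ratio of the 10 members in both states, and the lowest were those of Nudt21 (−0.88, SE 0.64) in proliferating and Nudt21 (−0.76, SE 0.66) in differentiating cells. No calls are given for this difference.

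**Figure D2:**
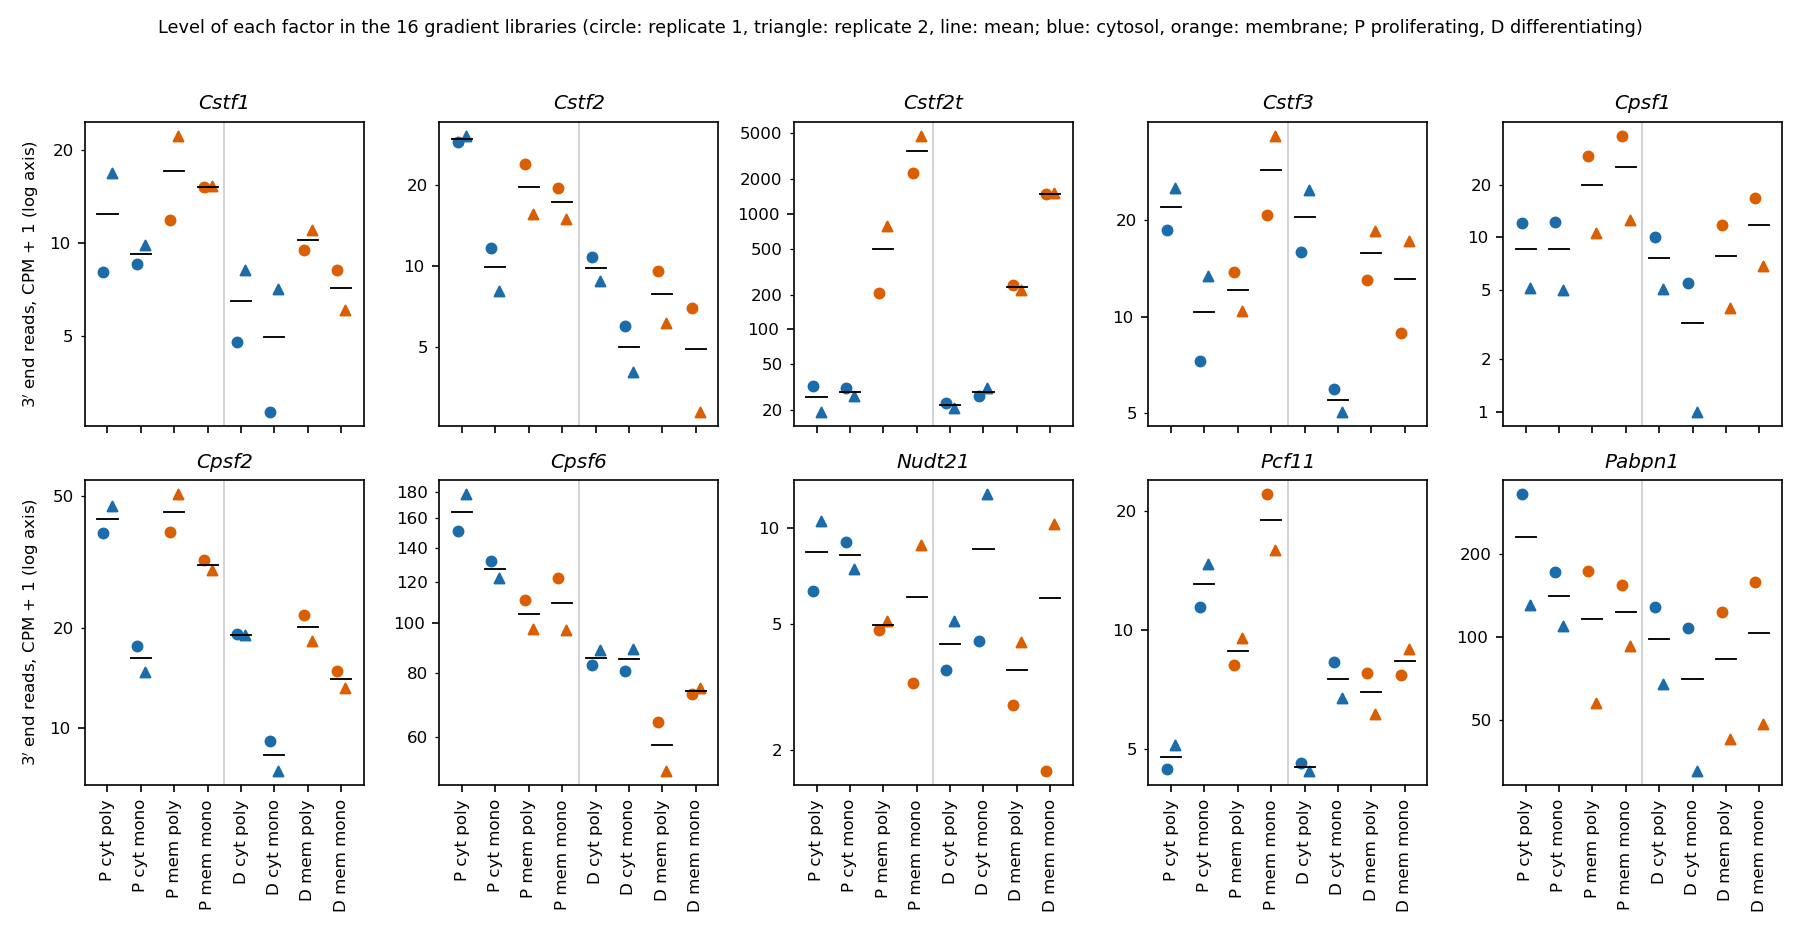
Level of each factor (CPM + 1, log axes that differ between panels) in the 16 gradient libraries, with circles and triangles for replicates 1 and 2 and lines for means of 2. Membrane points of Cstf2t lie above all its cytosol points, and all Cpsf6 points of differentiating cells lie below those of proliferating cells.

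Cstf2t encodes a CstF-64 paralogue, best known from male germ cells, where it stands in for the X-linked Cstf2. In proliferating cells its level was 31.3 and 18.2 CPM in cytosolic polysomes and 30.2 and 25.6 CPM in cytosolic monosomes. Membrane polysomes held 206 and 789 CPM, and membrane monosomes 2246 and 4760.0 CPM. Differentiating cells had 22.3 and 19.7 CPM in cytosolic polysomes, 25.6 and 30.4 CPM in cytosolic monosomes, 239.7 and 219.8 CPM in membrane polysomes, and 1477 and 1503 CPM in membrane monosomes. All 8 membrane libraries lay above all 8 cytosol libraries, and within the membrane fraction all 4 monosome libraries lay above all 4 polysome libraries. The log2 membrane-to-cytosol ratio was 5.51 (SE 0.49) in proliferating and 4.29 (SE 0.47) in differentiating cells, 8th and 44th highest of 11176 genes. In whole fractions the gene stood at 4141 CPM in membrane and 22.6 CPM in cytosol, a log2 ratio of 7.52 with 1 library on each side, where the median of 9671 genes was −0.13. By CPM it ranked 14th to 878th among the genes with reads in the 13 membrane libraries, and 2759th to 6202nd in the 13 cytosol libraries.

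The files listed 2 poly(A) sites for Cstf2t, 395 nt apart on the plus strand of chromosome 19 (build mm9), and the membrane excess was far larger at the downstream site. That site, chr19:31161481, held 121549 reads, 99.8% of the gene's total over all 26 libraries, and the upstream site, chr19:31161086, held 278. Downstream levels were 7.89 to 30.7 CPM in the 13 cytosol libraries and 204 to 4756 CPM in the 13 membrane libraries, with no overlap. At the upstream site the ranges were 0.442 to 4.69 CPM in cytosol and 0.761 to 7.80 CPM in membrane, and these overlapped. Matched pairs of libraries differed 6.90- to 192-fold at the downstream site (median 62.1) and 0.787- to 9.72-fold at the upstream site (median 1.38), where counts were low. The upstream values rest on 95 cytosol and 183 membrane reads in all.

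**Figure D3:**
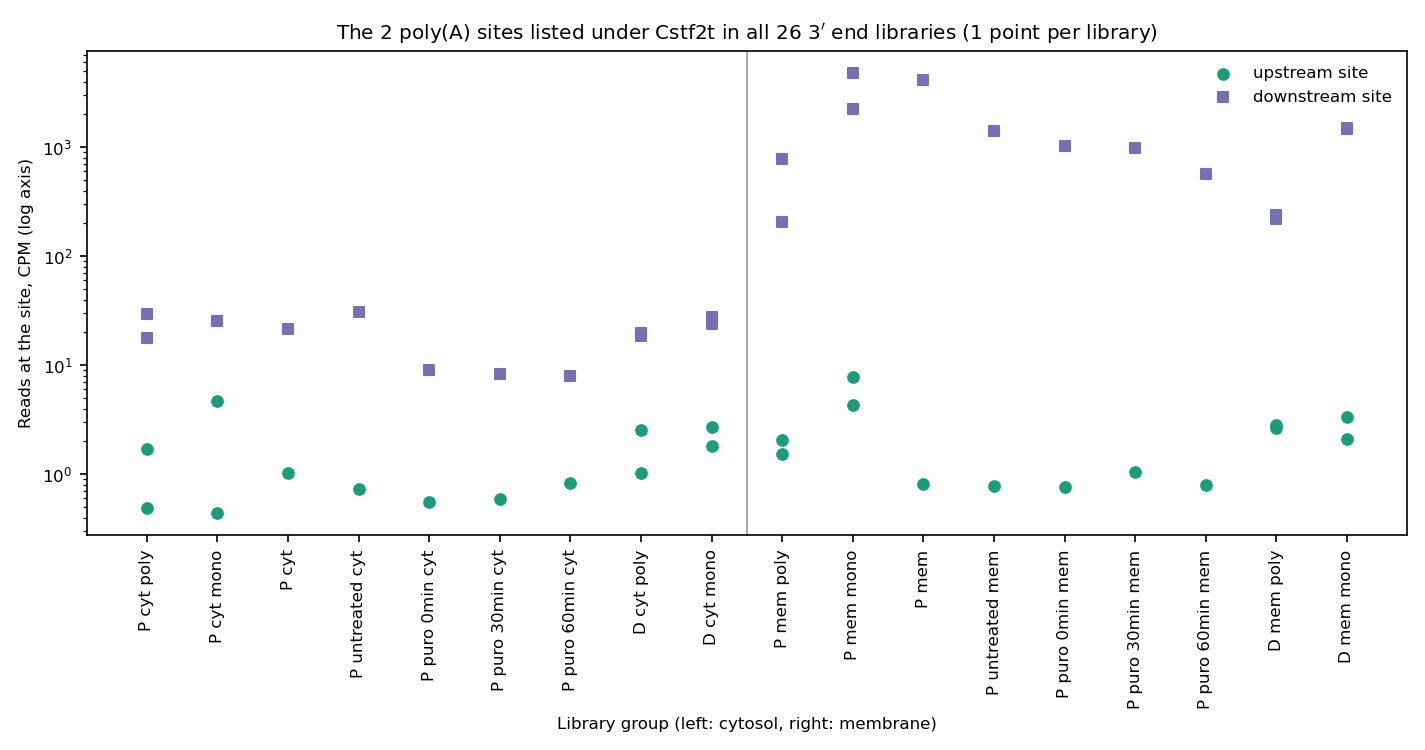
Reads at the 2 sites listed under Cstf2t (CPM, log axis) in each 3′ end library, cytosol left and membrane right of the grey line. Squares (downstream site) lie between 204 and 4756 CPM in membrane against 7.89 to 30.7 CPM in cytosol, while circles (upstream site) cover overlapping ranges on both sides.

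The puromycin libraries are separate from the gradient libraries in which the membrane level of Cstf2t was known, and the same difference was tested in them. Both sets come from the same series and cell line. Members were chosen with earlier results of these data known, so this test is not independent support. Cstf2t stood at 1414, 1036, 974 and 564 CPM in membrane (untreated, 0, 30 and 60 min) and at 31.4, 9.51, 8.93 and 8.72 CPM in cytosol. Membrane exceeded cytosol in all 4 pairs, and among 9919 genes this was the highest log2 ratio, 6.08 (SE 0.32, edgeR adjusted p = 0.0124). Called members numbered 2 of 10, Cstf2t and Pcf11, against 25.5% of all genes. With any pair of libraries left out, 0 of the 9919 genes passed the threshold, and Cstf2t kept a log2 ratio of 5.86 to 6.28 with adjusted p between 0.0511 and 0.0719. The downstream site's share of the gene was 99.9% of pooled reads in membrane and 94.9% in cytosol of this series. Tested against the rest of the gene it was used more in membrane (log2 6.01, SE 0.46, edgeR adjusted p = 1.45e-08, called with each pair left out in turn), where 9.49% of 13031 sites differed. The rest of the gene held 20 cytosol and 30 membrane reads in this series. The site test is therefore mostly the gene-level difference again, and not separate support. Of 23 member sites tested in that comparison 4 were called, the others belonging to Cpsf6, Cpsf2 and Pabpn1.

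Cstf2t kept a high membrane share at every exposure to puromycin. Its log2 membrane-to-cytosol ratio was 5.49 untreated, 6.77 at 0 min, 6.77 at 30 min and 6.01 at 60 min. Summed endoplasmic reticulum and secretory markers went from 4.43 and 4.93 at the first pair of exposures to 0.22 and 0.27 at 30 and 60 min. Nuclear-retained RNAs had ratios of 2.77, 3.95, 5.05 and 5.80 over the same exposures, on summed levels of 8.34 to 18.7 CPM in cytosol and 128 to 572 CPM in membrane. The change of the Cstf2t ratio between exposed (30 and 60 min) and unexposed cells was 0.29 (SE 0.42, edgeR adjusted p = 0.611), an estimate smaller than its error, and its difference from the marker lists was not tested. A part of nuclear RNA or of translation in the membrane signal of Cstf2t was not tested.

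Within membrane-bound RNA, Cstf2t was lower in polysomes than in monosomes by a log2 fold change of −2.72 in differentiating cells (SE 0.61, edgeR adjusted p = 0.0301) and −2.44 in proliferating cells (SE 0.60, adjusted p = 0.0825). The replicate block called both, with adjusted p of 0.0153 and 0.0259. The differentiating call was lost without any of its 4 libraries, at adjusted p of 0.103 and 0.114 without monosome replicates 1 and 2 and of 0.152 and 0.151 without polysome replicates 1 and 2. In cytosol the estimates were −0.25 (SE 0.59) and −0.71 (SE 0.60) in proliferating and differentiating cells. Whether the polysome-to-monosome ratio differed between fractions did not pass, at −2.19 (SE 0.83, adjusted p = 0.144) and −2.01 (SE 0.84, adjusted p = 0.250), where 7.29% and 4.1% of genes did. With the block 1 member, Cstf3, passed in proliferating cells and 2 members, Cstf3 among them, in differentiating cells. The block called 28.5% and 18.7% of all genes there. The difference of the membrane-to-cytosol ratio of Cstf2t between states was −1.21 (SE 0.59, adjusted p = 0.834), and 0 of 11176 genes passed that test in edgeR, where 669 had an unadjusted p below 0.05. The replicate block called 11 genes (0.0984%), none of them members.

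By the correlation of log2(CPM + 1) over the 26 libraries, the genes closest to Cstf2t among 6640 of at least 10 mean CPM were Herc1 (Pearson r = 0.915), Lpar6 (0.910), Col5a1 (0.903), Smcr8 (0.898) and Notch1 (0.896). These libraries share fractions, so the points are not independent. Of the 5, 4 were kept with a pseudocount of 5 CPM and 1, Lpar6, over the gradient libraries alone. In RefSeq's GRCm38 table Cstf2t overlaps Prkg1, and the poly(A) table listed 81 reads for Prkg1 in all libraries.

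Cstf2, the somatic CstF-64 that binds the downstream element, stood at a far lower level than its paralogue in membrane. Proliferating cells had 27.9 and 29.6 CPM in cytosolic polysomes, 10.7 and 7.07 CPM in cytosolic monosomes, 22.9 and 14.5 CPM in membrane polysomes, and 18.5 and 14.0 CPM in membrane monosomes. Differentiating cells had 9.77 and 7.82, 4.96 and 3.04, 8.57 and 5.14, and 5.98 and 1.86 CPM in the same order. In each of the 4 gradient groups both differentiating libraries lay below both proliferating ones. Cstf2 fell by 1.37 on the log2 scale with differentiation (SE 0.25, edgeR adjusted p = 0.000935) and was called with each of the 16 libraries left out. In proliferating cytosol it was higher in polysomes by a log2 fold change of 1.62 (SE 0.48, adjusted p = 0.0266). That call was lost without any of the 4 proliferating cytosol libraries, at adjusted p of 0.0592 and 0.164 without monosome replicates 1 and 2 and of 0.0747 and 0.101 without polysome replicates 1 and 2. Reads of Cstf2 fell at a site 2361 nt upstream (43.5%) and at the distal site (53.8%), chrX:130621361. The coding sequences of Cstf2 and Cstf2t are close relatives, and how reads that match both were counted is not given in the sources used here.

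Cstf1 encodes CstF-50, the WD-repeat subunit that holds the complex as a dimer. Its 8 proliferating gradient libraries ran from 7.05 to 21.2 CPM and its 8 differentiating ones from 1.83 to 9.99 CPM. The ranges overlapped, and 4 differentiating libraries lay below all proliferating ones. It fell by 0.85 with differentiation on the log2 scale (SE 0.29, edgeR adjusted p = 0.0327). The call held with 6 of the 16 libraries left out in turn and was lost with the other 10, at adjusted p up to 0.125 without replicate 2 of proliferating cytosolic polysomes. Most of its reads, 86.2%, ended at chr2:172206581, 1368 nt before the distal site. Aurka, which overlaps Cstf1 in RefSeq's GRCm38 table, had 24846 reads, all listed on the other strand.

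Cstf3 encodes CstF-77, the scaffold of the complex, and its vertebrate genes are known for an early intronic poly(A) site that yields a short transcript. The most used site of Cstf3 was the early one: chr2:104449586, 55996 nt upstream of the distal site, took 81.6% of all its reads and the distal site chr2:104505582 took 16.2%. Over the gradient libraries the early site held 63.2% to 94.3% of reads (median 89.4), and in the puromycin series it held 72.8% of pooled cytosol reads and 72.0% of pooled membrane reads. No comparison called a change in this share, with or without the replicate block. Gene-level counts of Cstf3 are therefore mostly counts of the early end.

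Cstf3 stood higher in polysomes than in monosomes of the cytosol. Proliferating cytosol had 17.5 and 24.1 CPM in polysomes and 6.25 and 12.4 CPM in monosomes, and differentiating cytosol had 14.9 and 23.8 CPM in polysomes and 4.96 and 4.05 CPM in monosomes. Polysome libraries lay above monosome libraries in both states. The log2 difference was 1.77 in differentiating cells (SE 0.52, edgeR adjusted p = 0.0260) and 1.09 in proliferating cells (SE 0.49, adjusted p = 0.121, or 0.00494 with the replicate block). Without differentiating cytosol monosome replicates 1 and 2 the differentiating call was lost at adjusted p of 0.0954 and 0.117, and without polysome replicates 1 and 2 at 0.0509 and 0.113.

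In proliferating membrane Cstf3 had 12.7 and 9.41 CPM in polysomes and 19.7 and 35.5 CPM in monosomes, the reverse of the cytosol. In differentiating membrane it had 12.0 and 17.5 CPM in polysomes and 7.89 and 16.2 CPM in monosomes, so polysomes were higher in both replicates, as in cytosol. Its polysome-to-monosome ratio was lower in membrane than in cytosol by 2.10 on the log2 scale in proliferating cells (SE 0.68, edgeR adjusted p = 0.0863) and by 1.53 in differentiating cells (SE 0.71, adjusted p = 0.319). The block called both differences, at adjusted p of 0.000687 and 0.0407, where 28.5% and 18.7% of all genes were called.

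Cpsf1 encodes CPSF160, the large scaffold of the poly(A) signal reader. Its level followed the replicate number: replicate 1 was higher than replicate 2 in all 8 gradient groups, 2.23- to 3.66-fold where both had reads. Proliferating cells had 11.01 and 4.11 CPM in cytosolic polysomes, 11.2 and 3.98 in cytosolic monosomes, 28.0 and 9.58 in membrane polysomes, and 37.1 and 11.6 in membrane monosomes. Differentiating libraries ran from 10.7 and 2.94 CPM in membrane polysomes and 15.8 and 5.84 in membrane monosomes to 9.09 and 4.08 in cytosolic polysomes and 4.44 and 0 in cytosolic monosomes, the last with 0 reads. Without a term for replicate no comparison of Cpsf1 passed. With the block it fell by 0.95 on the log2 scale with differentiation (SE 0.23, edgeR adjusted p = 0.00239) and was higher in cytosolic polysomes of differentiating cells by 1.39 (SE 0.49, adjusted p = 0.0198). The puromycin pairs gave log2 membrane-to-cytosol ratios of CPM of 0.23, 1.51, 1.49 and 2.06 (difference fitted by edgeR 1.13, SE 0.36, adjusted p = 0.0709). Nearly all reads (99.8%) ended at 1 site, chr15:76426238 on the minus strand. Adck5, which overlaps Cpsf1 in the GRCm38 table, had 12671 reads on the plus strand.

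Cpsf2 encodes CPSF100, the catalytically inactive partner of the endonuclease CPSF73. Its level fell with differentiation. Proliferating cells had 37.7 and 45.7 CPM in cytosolic polysomes, 16.7 and 13.7 in cytosolic monosomes, 38.0 and 49.8 in membrane polysomes, and 31.2 and 29.0 in membrane monosomes. Differentiating cells had 18.2 and 18.0, 8.09 and 6.41, 20.9 and 17.3, and 13.9 and 12.2 CPM. Both differentiating libraries lay below both proliferating ones in each of the 4 groups. Cpsf2 fell by 0.97 on the log2 scale (SE 0.17, edgeR adjusted p = 0.000696), and was called with each of the 16 libraries left out.

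Cpsf2 was also more abundant in cytosolic polysomes than in monosomes, by a log2 difference of 1.38 in proliferating cells (SE 0.33, edgeR adjusted p = 0.00971) and 1.01 in differentiating cells (SE 0.35, adjusted p = 0.0495). The proliferating call was lost without replicate 2 of the cytosolic monosomes (1.23, adjusted p = 0.0753) or polysomes (1.23, adjusted p = 0.0642). The differentiating call was lost with any of the 16 libraries left out, at adjusted p of 0.0521 to 0.189. In membrane the estimates were 0.93 (SE 0.33, adjusted p = 0.212) and 0.54 (SE 0.33, adjusted p = 0.407), and the block called the first (0.91, adjusted p = 0.00670).

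Reads of Cpsf2 were spread over 4 sites on the plus strand of chromosome 12. The distal site, chr12:103244635, held 43.1%, and sites 2439, 2144 and 896 nt upstream held 9.77%, 27.3% and 19.1%. In proliferating gradient libraries the distal share ran from 21.9% to 53.6% (median 40.8, n = 8), and in differentiating ones from 0% to 39.0% (median 18.0, n = 8), so the ranges overlapped. Against the other sites of the gene it fell by 1.73 on the log2 scale (SE 0.40, edgeR adjusted p = 0.0273), 1 of 22 member sites called where 2.69% of 11737 sites were. The call held with 6 of the 16 libraries left out (log2 −2.89 to −1.37) and was lost with the other 10, at adjusted p of 0.0532 to 0.0724. It was lost against the most abundant other site alone (−1.53, adjusted p = 0.0954). The replicate block called it at adjusted p = 0.000303 and called 2 member sites in all, against 9.58% of sites.

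Membrane carried more of the distal end of Cpsf2 in the puromycin series. Its share was 57.9%, 54.6%, 53.7% and 50.6% in membrane (untreated, 0, 30 and 60 min) and 49.5%, 36.6%, 32.3% and 39.0% in cytosol. All 4 membrane values lay above all 4 cytosol values. The log2 difference was 0.86 (SE 0.26, edgeR adjusted p = 0.0429), lost without the untreated pair (adjusted p = 0.0606), the 0 min pair (0.135), the 30 min pair (0.218) or the 60 min pair (0.0912). In the gradient libraries pooled distal shares of Cpsf2 were 42.5% in membrane and 40.6% in cytosol of proliferating cells, and 23.9% and 23.7% in differentiating cells.

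The gene-level balance of Cpsf2 between fractions shifted with puromycin. Membrane held 60.1, 28.8, 43.9 and 40.7 CPM and cytosol 34.1, 22.6, 9.53 and 14.5 CPM, giving log2 ratios of 0.82, 0.35, 2.21 and 1.49. Both exposed ratios lay above both unexposed ones, as also for Pabpn1 and Cpsf6, while cytosol levels were lower at 30 and 60 min. The ratio rose by 1.17 (SE 0.28, edgeR adjusted p = 0.00442), and with Pabpn1 it made 2 of 10 members called, against 39.4% of all genes. No exposure had a second pair, so this test took untreated and 0 min, and 30 and 60 min, as replicates. The call was lost without the 30 min pair (0.80, adjusted p = 0.0935). The fraction markers above moved in the same libraries, the cytosolic markers from log2 ratios of −1.30 and −1.23 to 0.05 and 0.23.

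**Figure D4:**
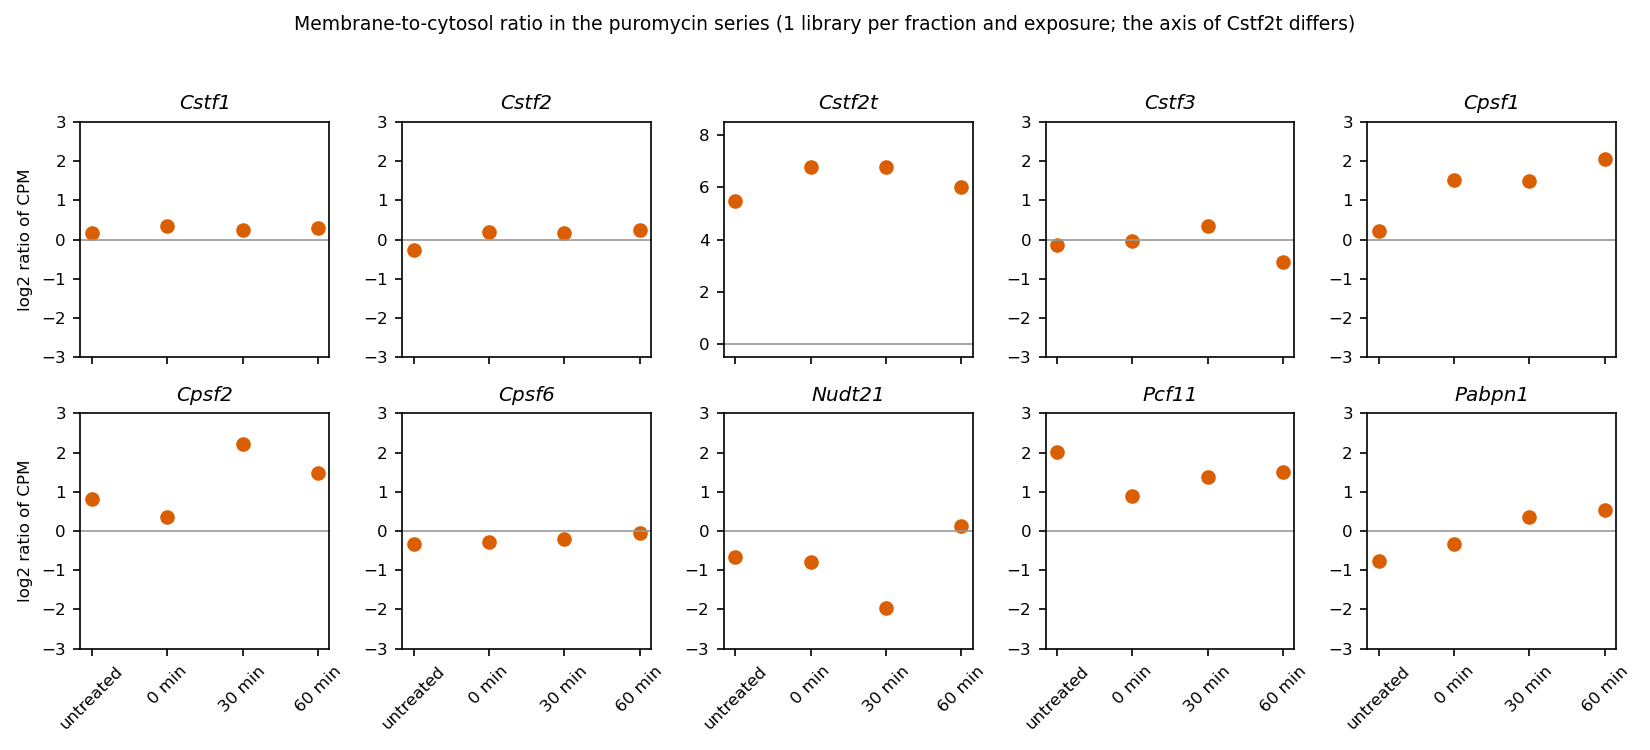
Log2 membrane-to-cytosol ratio of CPM of each factor at the 4 exposures of the puromycin series, 1 pair of libraries per point. Cstf2t lies between 5.49 and 6.77 on its own axis, and the exposed points of Cpsf2, Cpsf6 and Pabpn1 lie above their unexposed points.

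Cpsf6 encodes CFIm68, the larger CFI subunit that promotes use of distal sites. It was, after Cstf2t and with Pabpn1, among the most abundant members. Proliferating cells had 149.7 and 177 CPM in cytosolic polysomes, 131 and 121 in cytosolic monosomes, 109.5 and 96.3 in membrane polysomes, and 121 and 95.6 in membrane monosomes. Differentiating cells had 81.6 and 87.3, 79.6 and 88.0, 63.1 and 50.5, and 71.5 and 73.8 CPM. All 8 differentiating libraries lay below all 8 proliferating ones. Cpsf6 fell by 0.53 on the log2 scale with differentiation (SE 0.13, edgeR adjusted p = 0.00773), called with each of the 16 libraries left out. As a description, its membrane-to-cytosol log2 ratio was −0.66 (SE 0.19) in proliferating and −0.68 (SE 0.19) in differentiating cells, and the whole fractions gave −0.97. The puromycin pairs gave −0.34, −0.27, −0.20 and −0.06 by CPM, and the difference fitted by edgeR was −0.40 (SE 0.13, adjusted p = 0.0746).

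Cpsf6 mRNA ended at 5 sites on the minus strand of chromosome 10, and in the puromycin series its distal end was used more in membrane. The distal site, chr10:116784342, held 12.5% of all its reads, and the most used site, 1752 nt upstream, held 39.0%. In the puromycin series the distal share was 23.4%, 22.6%, 18.5% and 16.6% in membrane and 12.2%, 9.63%, 12.3% and 9.97% in cytosol. Every membrane value lay above every cytosol value. The log2 difference in distal use was 1.02 (SE 0.18, edgeR adjusted p = 0.000818), and it was called with each pair left out in turn (0.88 to 1.14). The gradient libraries did not share one direction: pooled distal shares were 13.7% in membrane and 11.2% in cytosol of proliferating cells, and 6.86% in membrane and 7.71% in cytosol of differentiating cells. With differentiation the distal share went from 9.38% to 16.9% (median 10.7, n = 8) to 4.32% to 9.96% (median 7.56, n = 8), ranges that overlapped, with a log2 difference of −0.82 (SE 0.22, adjusted p = 0.0616). The replicate block called that fall (−0.83, SE 0.20, adjusted p = 0.00480).

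**Figure D5:**
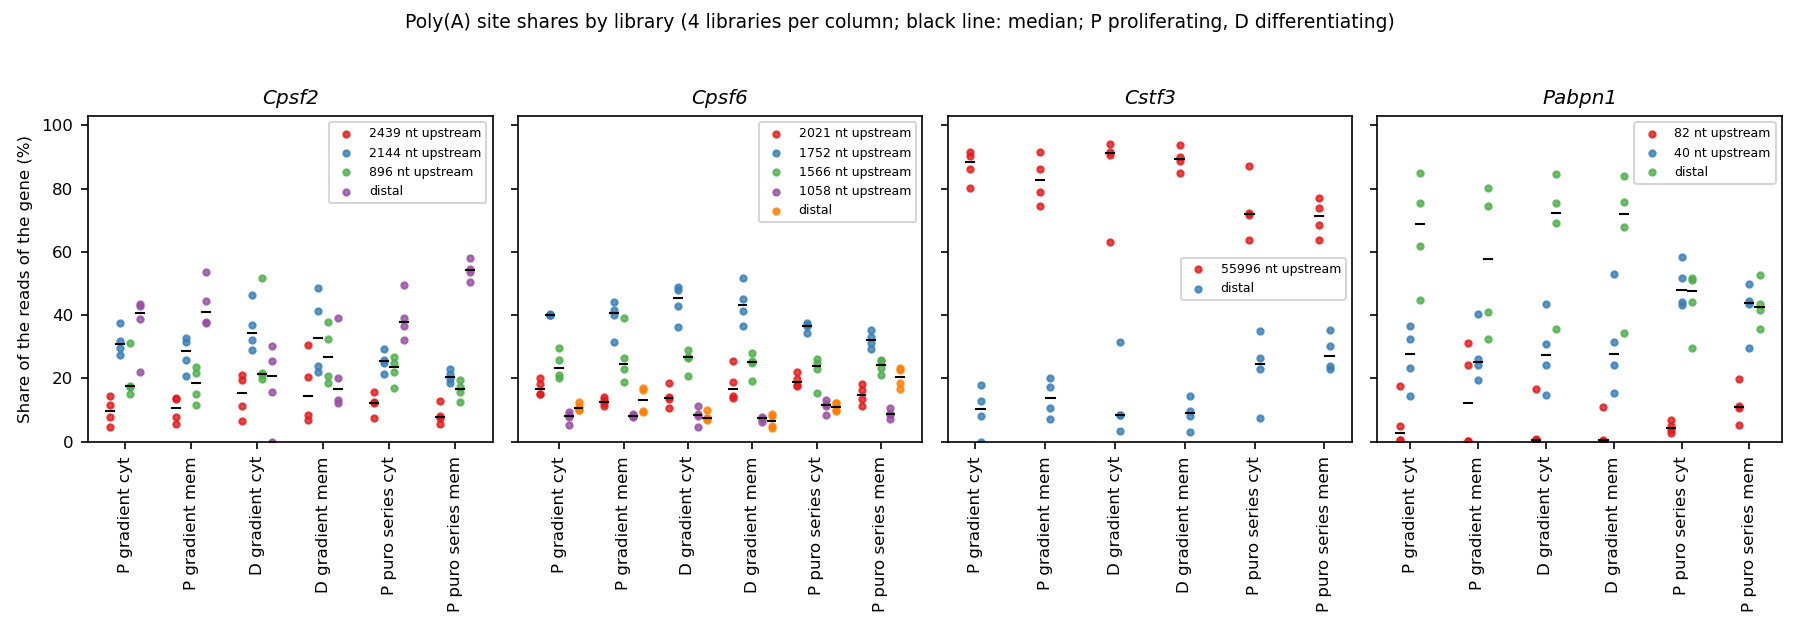
Share of a gene's reads at each site of at least 5% (y axis, percent) for Cpsf2, Cpsf6, Cstf3 and Pabpn1, with 1 point per library, 4 libraries per column and lines for medians. The distal shares of Cpsf2 and Cpsf6 in the puromycin series lie higher in membrane than in cytosol, and the early site of Cstf3 holds most reads in every library plotted.

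Nudt21 encodes CFIm25, the UGUA-binding CFI subunit, and was the least abundant member by reads, 820 over the 26 libraries. Gradient levels were 0.718 to 11.8 CPM, and no comparison without the replicate block called it. Replicate 2 was higher than replicate 1 in 7 of 8 groups. Reads fell at 2 sites 139 nt apart on the minus strand, chr8:96543437 (41.5%) and the distal chr8:96543298 (57.1%). The upstream site held 58.8% of pooled reads of gradient replicate 1 and 30.7% of replicate 2. With the block, Nudt21 was lower in polysomes than in monosomes of differentiating cytosol (log2 −1.38, SE 0.56, edgeR adjusted p = 0.0433), on levels of 2.57 and 4.08 against 3.39 and 11.8 CPM, which overlapped.

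Pcf11 encodes the CFII subunit that binds the polymerase and ends transcription, and its gene is also known for an early poly(A) site. Unlike Cpsf2 and Cstf2 it was lower in polysomes of proliferating cytosol, with 3.44 and 4.11 CPM against 10.4 and 13.7 CPM in monosomes. These values did not overlap. The log2 difference was −1.74 (SE 0.40, edgeR adjusted p = 0.00755), and it was not called without polysome replicate 1 (−1.61, adjusted p = 0.0618). Differentiating cytosol had 3.601 and 3.40 CPM in polysomes and 7.31 and 5.73 in monosomes (log2 −1.20, SE 0.41, adjusted p = 0.0503; 0.0184 with the block). Membrane estimates were −0.80 (SE 0.38, adjusted p = 0.366) and −0.31 (SE 0.39, adjusted p = 0.716) in proliferating and differentiating cells.

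Pcf11 was also higher in membrane than in cytosol of the puromycin series. It had 11.7, 5.32, 9.71 and 9.84 CPM in membrane and 2.91, 2.89, 3.77 and 3.46 CPM in cytosol, and all membrane values lay above all cytosol values. The log2 difference was 1.26 (SE 0.26, edgeR adjusted p = 0.0261), and with a pair left out it was 1.02 to 1.38 with adjusted p of 0.0599 to 0.0885. The gradient ratios were 0.60 (SE 0.27) and 0.18 (SE 0.28) in proliferating and differentiating cells. Of its reads 65.4% ended at the distal site chr7:99792222, 17.5% 545 nt upstream and 8.35% at chr7:99816737, 24515 nt upstream. No comparison called a change of site for Pcf11.

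Pabpn1 encodes the nuclear poly(A) binding protein, which sets tail length and holds back proximal sites. Its gradient levels were 328 and 129.6 CPM in cytosolic polysomes, 170.6 and 108.7 in cytosolic monosomes, 172.5 and 56.8 in membrane polysomes and 153 and 91.3 in membrane monosomes of proliferating cells. Differentiating cells had 127 and 66.6, 106.5 and 31.7, 122 and 41.6, and 157 and 47.2 CPM. Replicate 1 was higher in all 8 groups, 1.57- to 3.36-fold. With the replicate block Pabpn1 fell by 0.63 on the log2 scale with differentiation (SE 0.15, edgeR adjusted p = 0.00239), and without it by 0.52 (SE 0.38, adjusted p = 0.313). The puromycin series held 13.6 to 34.1 CPM and the gradient libraries 31.7 to 328 CPM. Labels give phenol and chloroform extraction for gradient libraries and TRIzol for the puromycin series, and extraction and sample set cannot be told apart.

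Pabpn1 ended at 3 closely spaced sites on the plus strand of chromosome 14, the distal chr14:55517761 (65.5%) and sites 40 nt (28.0%) and 82 nt (5.53%) upstream. The site 82 nt upstream, chr14:55517679, held 0.350% of pooled reads in gradient replicate 1 and 16.1% in replicate 2, and the distal site 78.4% and 45.6%. In the puromycin series that upstream site held 19.7%, 11.2%, 5.30% and 10.7% in membrane and 2.66%, 4.83%, 3.65% and 6.96% in cytosol. The values overlapped between fractions, and within each pair membrane was higher. The log2 difference was 1.52 (SE 0.46, edgeR adjusted p = 0.0369), lost without the untreated pair (0.86, adjusted p = 0.348), the 0 min pair (adjusted p = 0.0778) or the 30 min pair (0.0588).

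The membrane-to-cytosol ratio of Pabpn1 rose with puromycin. Membrane held 20.1, 15.8, 17.3 and 23.2 CPM and cytosol 34.1, 20.0, 13.6 and 15.9 CPM, so log2 ratios were −0.76, −0.34, 0.35 and 0.54. Both exposed ratios lay above both unexposed ones, as also for Cpsf2 and Cpsf6. The change was 0.93 (SE 0.27, edgeR adjusted p = 0.0142). It was not called without the untreated pair (0.58, adjusted p = 0.152), without the 60 min pair (0.81, adjusted p = 0.138) or in DESeq2's test (0.90, adjusted p = 0.0642).

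Exposure to puromycin as such called 0 of the 10 members and 0 of their sites at an adjusted p under 0.05. This fit took the cytosol and membrane library of an exposure as separate. Without a term for a ratio that shifts with exposure, the fit does not show that levels stayed the same. It called 0.0907% of genes (9 of 9919; 890 at an unadjusted p under 0.05) and 0.0384% of sites in edgeR. The largest member estimate was that of Cstf2t, −0.97 (SE 0.36, adjusted p = 0.494). Site use in polysomes against monosomes called 0 member sites in each of the 4 comparisons, against 0.273% and 0.0170% of sites in proliferating cytosol and membrane and 0.264% and 0.0682% in differentiating cytosol and membrane. The replicate block called the distal Pabpn1 site in differentiating cytosol (−1.33, adjusted p = 0.0253) and membrane (−1.30, adjusted p = 0.0242), and the downstream Cstf2t site in differentiating membrane (−2.71, adjusted p = 1.77e-05), where it called 3.70% of sites in differentiating cytosol and 2.57% in differentiating membrane. It called 0 member sites in proliferating cytosol (2.27% of sites) and membrane (1.2% of sites). For Cstf2t the rest of the gene held 22 reads in differentiating membrane monosomes and 39 in polysomes, so its site call mostly repeats the gene-level difference.

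Other genes of the pathway were taken from lists that were also drawn up with earlier results known. Of 13 other core factors 12 were tested. With differentiation 0 were higher and 3 lower: the endonuclease Cpsf3 (log2 −0.57, SE 0.15, edgeR adjusted p = 0.0113), Cpsf4 (−0.69, SE 0.21, adjusted p = 0.0210) and the CFII subunit Clp1 (−1.28, SE 0.44, adjusted p = 0.0344). The shares over all genes were 16.3% higher and 19.2% lower. The list had a median of −0.12, and all genes one of −0.09. With the replicate block 3 were higher and 3 lower, against 20.8% and 25.8% of all genes. In proliferating cytosol 4 were higher in polysomes and 0 lower (11.5% and 12.8% of all genes), among them the phosphatase Ssu72 (1.68) and Cpsf3 (log2 difference with SE 0.31 and adjusted p = 0.0256), and with the block 5 were higher and 1 lower (23.7% and 24.3% of all genes). In differentiating cytosol 3 were higher, Rbbp6 (2.36), Ssu72 (1.60) and Cpsf3 (1.35), and 0 lower (12.6% and 11.3% of all genes), and with the block 5 were higher and 1 lower (24.6% and 21.5%). In membrane polysomes 0 differed in both states, where 0.796% and 3.95% of all genes did, and with the block 4 of 12 in proliferating and 2 of 12 in differentiating cells were higher (16.8% and 20.3% of all genes). In the puromycin series 2 were higher in membrane, the hexamer-binding Wdr33 (1.76) and Rbbp6 (1.07), and 4 were lower, against 11.6% and 13.9% of all genes.

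Of 18 modulators of site choice, termination and poly(A) binding, 9 were lower and 0 higher in differentiating cells, where 19.2% of all genes were lower and 16.3% higher, with a median log2 fold change of −0.62. The lower genes included the splicing regulators Ptbp1 (−0.94, SE 0.14, edgeR adjusted p = 0.000212), Hnrnph1 (−1.56, SE 0.33, adjusted p = 0.00276) and Srsf3 (−0.60, SE 0.14, adjusted p = 0.00500) and the kinase Cdk12 (−1.48, SE 0.35, adjusted p = 0.00522). In proliferating cytosol 5 modulators were higher in polysomes and 2 lower (11.5% and 12.8% of all genes; median of the list 0.68), the higher ones including Srsf3 (2.06), Snrpa (1.87), Elavl1 (1.72) and Ptbp1 (1.24). In differentiating cytosol 2 were higher, Srsf3 (1.48) and Srsf7 (1.52), and 2 lower (12.6% and 11.3% of all genes), and with the block 6 were higher and 2 lower (24.6% and 21.5%). The lower ones in both states were the cytoplasmic poly(A) binding proteins Pabpc1 and Pabpc4, by log2 fold changes of −3.87 and −2.47 in proliferating and −3.84 and −3.52 in differentiating cells. For 12 Integrator subunits, which cleave snRNA ends, 0 were higher and 5 lower with differentiation (16.3% and 19.2% of all genes), among them Ints5 (−1.11, SE 0.15), and with the block 1 was higher and 6 lower (20.8% and 25.8%). Of 4 tested histone-end processing genes 3 were lower, where 19.2% of all genes were, among them the stem-loop binding protein Slbp (−1.18). The list had 1 higher gene, Lsm10 (0.74), where 16.3% of all genes were higher. In the cytoplasmic polyadenylation list, with 4 genes tested, the translational regulator Cpeb3 was higher (1.01) and 0 were lower (16.3% and 19.2% of all genes). With the block 1 was higher and 1 lower (20.8% and 25.8% of all genes).

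RNA-seq of proliferating cells, with 1 library a fraction and no test, counted reads before the proximal site and between the proximal and distal site of each listed gene. Both regions summed, Cpsf1 had a log2 insoluble-to-cytosol ratio of 2.15, Pcf11 one of 2.08, Pabpn1 1.04, Cstf3 0.97, Cstf1 0.87 and Cpsf6 0.71, while Cpsf2 (−0.44) and Cstf2 (−0.83) lay below the median of 8001 genes, 0.31. Pcf11 had the highest membrane-to-cytosol ratio of the 8 members, 1.02, and Cstf2 the lowest, −1.16, around a median of −0.18. The share of Cpsf1 reads in the alternative region was 92.3% in cytosol (exact 95% interval 88.7 to 94.98), 91.7% in insoluble material (90.1 to 93.2) and 85.6% in membrane (82.4 to 88.4), so the membrane interval lay below the others. For Cpsf6 the shares were 82.6%, 77.5% and 84.3%, and for Pabpn1 85.6%, 84.0% and 86.3%, in the same order. Cstf3 had 3 of 69 reads, 0 of 131 and 2 of 131 in its alternative region. The sites that bound these regions were not matched to the poly(A) sites above, so region shares cannot be set against site shares. Cpsf1 had 99.8% of its 3′ ends at 1 site, and the early and distal ends of Cstf3 lay 55996 nt apart. The intervals cover counting error only.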

How the data were processed

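Ends of polyadenylated RNA were counted in 26 libraries and RNA-seq reads in 3. The authors deposited read counts per poly(A) site and per gene region. Per the submitters' processing notes, cutadapt, Bowtie2 and STAR 2.5.2 and the mouse build mm9 were used, and how reads were counted is not given in the sources used here. From the deposited counts, entries at 651 positions listed under more than 1 gene (0.262% of reads, no member's) were dropped, and sites were summed per gene. CPM divides by the library total, while edgeR's fits scale libraries by TMM, so a fitted difference need not equal the mean of CPM ratios. Genes passing edgeR's filterByExpr were tested with edgeR 4.0.16 (R 4.3.3; TMM, robust quasi-likelihood, Benjamini-Hochberg, threshold 0.05), in 1 fit with a mean per group for the 16 gradient libraries and in fits of the 8 puromycin libraries, where exposed means 30 and 60 min and unexposed means untreated and 0 min. Site usage set a site of at least 5% of its gene's reads, with a mean of at least 5 reads in site and rest, against the rest of its gene. Scripts were tested on simulated data. Tables and figures used Python 3.11.15, pandas 2.3.3 and matplotlib 3.10.9, and DESeq2 1.42.0 was an alternative.

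Members and lists were chosen with earlier results of these data known. All members are described, and other listed genes were named from those called in a comparison, at most 5 of lowest p a list. Genes like Cstf2t were the 5 of highest Pearson correlation among genes of at least 10 mean CPM. Nothing in the labels says that replicates were separate cultures, so p-values reflect only how far these libraries differ, and that spread may be technical. No exposure of the puromycin series was replicated, so its tests took libraries of different exposures as replicates. Same-numbered gradient libraries deviated together in all 28 pairs of groups (r from 0.169 to 0.827, median 0.348, 6673 genes), so the numbers pair the samples, by this correlation and not by a label. The replicate block was fitted within each state, and across states for comparisons of states. No sequence is printed.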

Additional observations from a re-analysis of the deposited data

Results flagged for a closer look

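The membrane-to-cytosol ratio of 2 members differed between exposed and unexposed cells of the puromycin series by a test of that difference (edgeR, 8 libraries). That is 2 of 10 members, where 39.4% of all genes passed the same test, so the members lay below the background share. For Cpsf2 the log2 change was 1.17, and for Pabpn1 it was 0.93. Both exposed pairs lay above both unexposed pairs for either gene, and also for Cpsf6, which did not pass. The share of all genes with this order was not counted. Fraction markers moved in the same libraries, and their part in these changes was not tested.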

How the results depend on the processing

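No member estimate past the threshold changed direction under the alternatives run. The counts below are of the 10 members unless sites are named. The replicate block, which uses the pairing of numbered libraries, moved the membrane-to-cytosol count in proliferating gradient libraries from 2 to 6 (34.8% to 56.1% of all genes; a difference already known, from which nothing is read), the polysome counts from 0 to 3 in proliferating membrane and from 2 to 5 in differentiating cytosol, and the difference of polysome ratios between fractions from 0 to 1 in proliferating and 0 to 2 in differentiating cells. It moved site counts from 0 to 1 and 0 to 2 in differentiating cytosol and membrane polysomes and from 1 to 2 with differentiation. DESeq2's test gave 1 in proliferating membrane polysomes, 2 for the proliferating difference between fractions, 5 for puromycin membrane against cytosol and 1 for the change of ratio with puromycin. With no filter on low counts the polysome counts were 1 in proliferating membrane and 1 in differentiating cytosol, and the proliferating difference between fractions was 1. The shares of all genes called by DESeq2's test or without the filter are not given here, so nothing about the members is read from these counts. RNA-seq shares rested on 4 members, not 8, with at least 20 reads in each region. For all genes the block moved calls from 89 to 2578 in proliferating membrane polysomes and from 442 to 3315 in differentiating ones. For the difference of fraction ratios between states it moved them from 0 to 11, or to 514 with replicates paired within a state, an alternative added after the data were seen.

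With 1 library or pair left out, member counts ranged from 1 to 3 for proliferating cytosol polysomes, 0 to 1 for differentiating cytosol and membrane polysomes, 3 to 4 with differentiation, 1 to 2 for differentiating membrane against cytosol, 0 to 1 for the proliferating difference between fractions, 0 to 0 for puromycin membrane against cytosol and 1 to 3 for the change of ratio. Site counts ranged from 0 to 1 with differentiation and for membrane against cytosol in either state, and from 2 to 3 in the puromycin series. Calls over all genes ranged from 1262 to 2778 for proliferating cytosol polysomes and from 1493 to 2623 for differentiating ones. For differentiating membrane polysomes they ranged from 10 to 432, and with differentiation from 3243 to 3944. DESeq2's size factors shifted the median log2 fold change of all genes by −0.18 in proliferating membrane against cytosol and by −0.11 to −0.18 in 5 other comparisons. Low counts limit Nudt21, Pcf11, Cpsf1 and the upstream Cstf2t site. They also limit Cstf1, Cstf2, Cstf3 and Cpsf2, with as few as 7, 7, 12 and 19 reads in a library. The differentiating gradient libraries together held 268 reads of Cstf1 and 261 of Cstf2.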
